A study of Rattus norvegicus with 10 samples.

Results

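Mitochondrial ribosomal proteins are the protein subunits of the ribosome that works inside mitochondria. Genes were taken as members where the array's platform annotation gives a symbol that starts with Mrpl or Mrps, and the brightest probe set listed for that gene alone stood for it. This gave 73 genes with 97 probe sets, of 14217 genes with a probe set of their own and 31042 probe sets in all. The rule used no difference between groups.

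The arrays were Affymetrix whole-genome chips for the rat, hybridised with RNA from the left ventricle of male Sprague-Dawley animals weighing 250 to 300 g. The 5 GATA-4 samples were taken 3 days after transfer of the gene for GATA-4, a DNA-binding factor that drives cardiac genes, and the 5 LacZ samples 3 days after transfer of LacZ, which encodes a bacterial enzyme and serves as the control. All animals carried a transferred gene, so no untreated ventricle is in the comparison. The sources used here do not give the delivery vehicle, the site of delivery, the animals' age or the share of heart cells reached, and nothing in the sample labels says whether each sample is 1 animal, although the design text counts 5 in each group.

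The mammalian mitochondrial ribosome has a small subunit, which reads the messenger RNA, and a large subunit, which joins the amino acids. It translates the few messages encoded by mitochondrial DNA, all of them core parts of the respiratory chain and ATP synthase. Its own proteins are encoded in the nucleus, made in the cytosol and imported, so that its assembly needs nuclear and mitochondrial genes to be expressed together. Heart muscle is rich in mitochondria and depends on this chain for its ATP.

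Signals are given as log2 intensities after quantile normalization, which gives every array the same distribution of values. Differences are GATA-4 minus LacZ on this scale, and p-values are those of limma, adjusted by the Benjamini-Hochberg method over all 18625 probe sets tested, with a threshold of 0.05. The words rose and fell are kept for what passed it. The brighter Gata4 probe set was read as a check of the labels. It was 11.58, 11.28, 11.36, 11.59 and 11.42 on the GATA-4 arrays, against 10.50, 10.82, 10.63, 10.72 and 10.58 on the LacZ arrays, a rise of 0.79 (SE 0.09, adjusted p = 0.00131). A much dimmer Gata4 probe set did not pass the filter on signal. Its groups overlapped, from 4.41 to 6.21 with GATA-4 and from 3.19 to 5.63 with LacZ. GATA-4 array 1 was dim before normalization, with a 2%-trimmed mean signal of 142, where the other GATA-4 arrays lay between 249 and 329 and the LacZ arrays between 249 and 314. The sample numbers of GATA-4 arrays 4 and 5 do not follow on from those of the other 8 arrays, and the labels name no batch. All 13 measured cardiac muscle markers passed the filter on signal, and 1 of them fell, Ttn, which encodes the giant sarcomere protein titin (difference -0.27, adjusted p = 0.00957). Of the macrophage markers 7 of 13 rose, and of the dividing-cell markers 6 of 15 rose. Over all genes tested 3.71% rose and 2.66% fell. In a piece of ventricle, fewer heart muscle cells and less RNA per cell cannot be told apart.

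All 73 mitochondrial ribosomal protein genes passed the filter on signal. They were among the brighter probe sets, from the 76.2nd to the 99.0th percentile of mean signal. The difference was negative for 67 of them and positive for 6, with a median of -0.17 and a range from -0.37 to 0.32. Over all 10688 genes tested the median was -0.02 and 52.6% were negative. Over the 5465 tested genes at least as bright as the dimmest member, the median was -0.04 and 55.9% were negative.

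Of the 73 members, 4 fell and none rose: Mrpl16, Mrpl51, Mrpl3 and Mrps30. That is 5.48% of them, where 2.66% of all genes tested fell, 3.71% rose and 6.37% passed in either direction, as did 5.3% of all probe sets tested. Among the tested genes at least as bright as the dimmest member 4.34% fell, so the share of members that fell lay near the background. Before adjustment 22 members had a negative difference with a limma p under 0.05, which is 30.1%, and 1 had a positive one. Over all genes tested, dimmer ones included, the share with such a negative difference was 12.2%. The count of falls depended on which array was left out, among the members and over all genes tested. It stayed at 4 members without GATA-4 array 2 or LacZ array 2. It was 25 members without GATA-4 array 1, 1 without GATA-4 array 3, 2 without GATA-4 array 4 and 1 without GATA-4 array 5. It was 0 without LacZ array 1, 3, 4 or 5, where limma gave 18, 18, 19 and 20 members with an unadjusted p under 0.05. Of the 10688 genes tested with all arrays 284 fell. Without GATA-4 array 1, 3, 4 or 5 the count over all genes was 948, 81, 128 and 129. Without LacZ array 1, 3, 4 or 5 it was 81, 20, 70 and 60. Without GATA-4 array 2 it was 237, and without LacZ array 2 it was 160. With GATA-4 arrays 1 to 3 alone against LacZ no member passed, 12 had an unadjusted p under 0.05, the median was -0.12 and 56 of 73 were negative, while 0.355% of all genes tested fell. With median centring in place of quantile normalization 4 members fell, where 2.5% of all genes tested did.

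**Figure D1:**
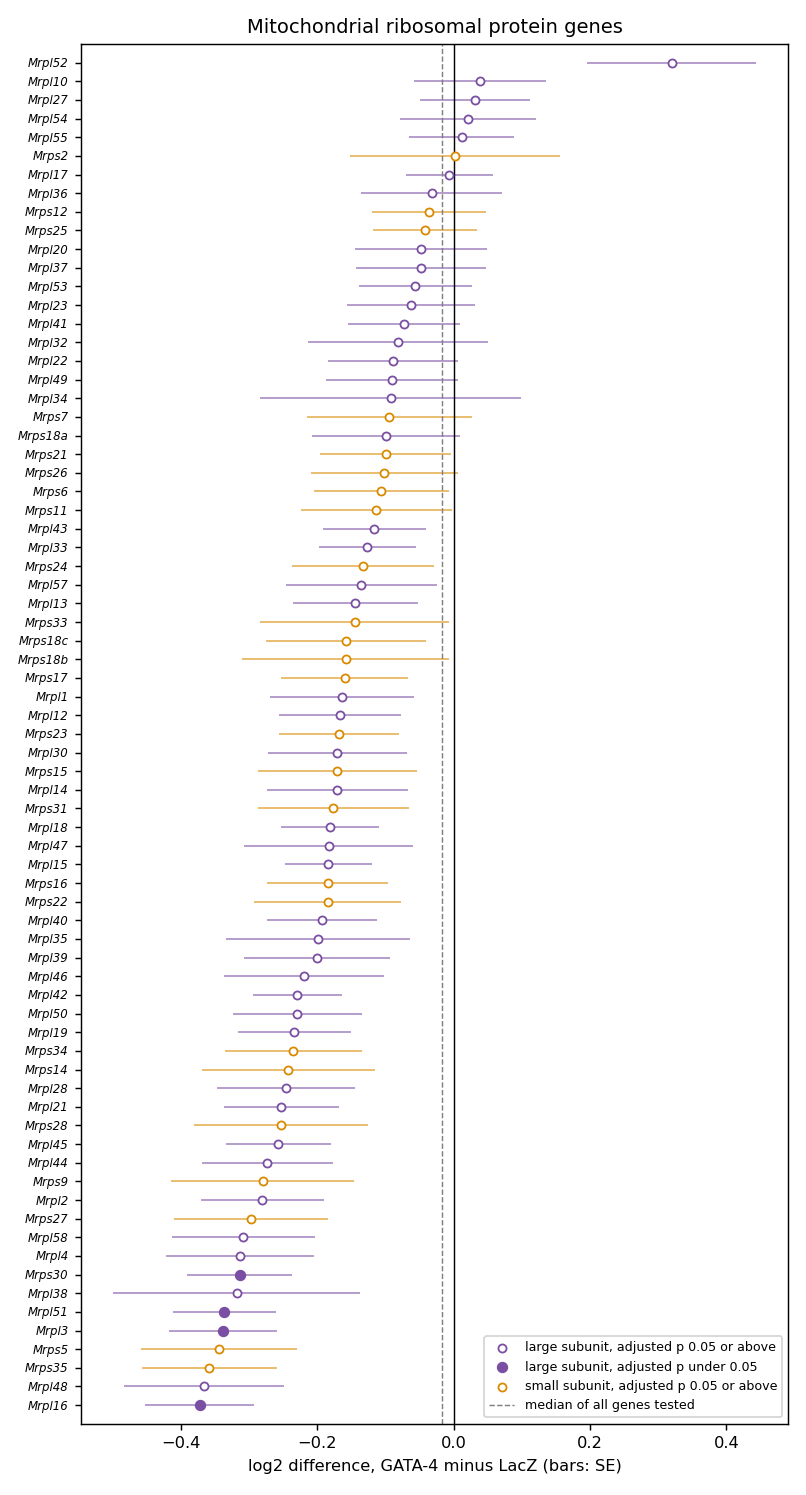
Log2 difference, GATA-4 minus LacZ, of each of the 73 mitochondrial ribosomal protein genes, with bars for the SE of limma (n = 5 arrays in each group). Filled points passed an adjusted p of 0.05, colours give the subunit the protein belongs to, and the dashed line is the median of all genes tested. The points lie left of 0 for 67 genes, and the 4 filled points are Mrpl16, Mrpl51, Mrpl3 and Mrps30.

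Mrpl16 is the counterpart of bacterial L16, a protein beside the catalytic centre of the large subunit. It read 10.36, 10.69, 10.66, 10.54 and 10.59 on the GATA-4 arrays, against 10.97, 10.80, 11.01, 10.92 and 11.00 on the LacZ arrays. The groups did not overlap, and the dim GATA-4 array 1 was the lowest of all. Mrpl16 fell by 0.37 (SE 0.08, adjusted p = 0.0235), or 1.29-fold. It missed the threshold without LacZ array 1, 3, 4 or 5, with adjusted p-values from 0.0524 to 0.0794.

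Mrpl51, a large-subunit protein without a bacterial counterpart, read 11.04, 10.96, 10.90, 10.67 and 10.93 with GATA-4, against 11.26, 11.21, 11.19, 11.33 and 11.20 with LacZ. Every GATA-4 array lay below every LacZ array, with GATA-4 array 4 the lowest. The fall was 1.26-fold (difference -0.34, SE 0.08, adjusted p = 0.0265). Its 3 dimmer probe sets differed by -0.40, -0.26 and -0.20 without passing, so all 4 probe sets of the gene had the same sign. With them averaged Mrpl51 differed by -0.30 and missed the threshold (adjusted p = 0.153). Without GATA-4 array 3 or 5, or LacZ array 1, 3, 4 or 5, its adjusted p lay between 0.0532 and 0.0755.

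Mrpl3 is the counterpart of bacterial L3, and the human gene is known from inherited mitochondrial cardiomyopathy. Its signal was 11.33, 11.16, 11.05, 11.11 and 11.12 on the GATA-4 arrays, against 11.46, 11.32, 11.66, 11.59 and 11.43 on the LacZ arrays. The groups touched at a single point, where GATA-4 array 1 reached the level of LacZ array 2. Mrpl3 fell by 0.34 (SE 0.08, adjusted p = 0.0297). It held its call in 3 of 10 fits with an array removed, those without GATA-4 array 1, GATA-4 array 2 or LacZ array 2, and its adjusted p in the other fits reached 0.0968.

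Mrps30 bears a small-subunit name but sits in the large subunit of the mammalian particle. It read 10.26, 10.57, 10.58, 10.47 and 10.48 with GATA-4, against 10.77, 10.72, 10.86, 10.76 and 10.82 with LacZ. The groups were fully apart, and GATA-4 array 1 again read lowest. The fall of 0.31 (SE 0.08) had an adjusted p of 0.0360 and held in the fits without GATA-4 array 1 or 2. With any of the other 8 arrays removed its adjusted p ran from 0.0541 to 0.114.

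**Figure D2:**
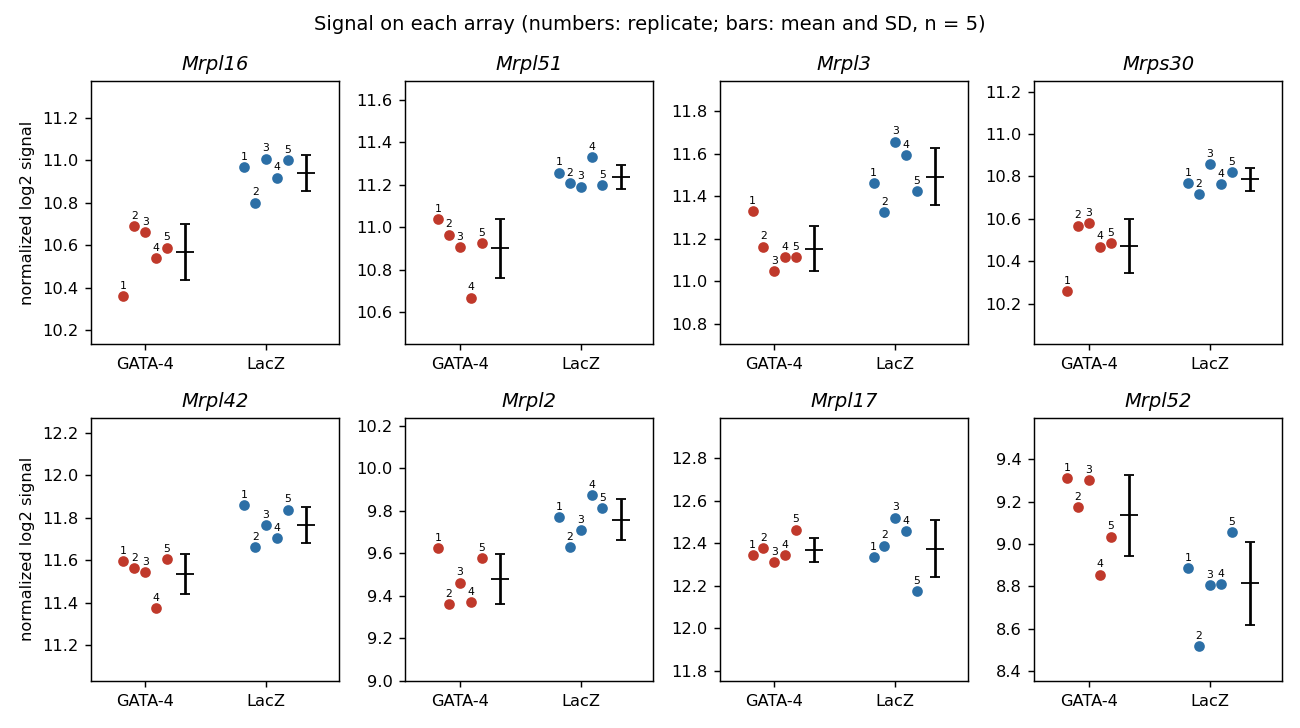
Normalized log2 signal on each GATA-4 and LacZ array for 8 members, with replicate numbers above the points and the mean and SD of the 5 arrays as a bar at the right of each group. Mrpl16, Mrpl51, Mrps30, Mrpl42 and Mrpl2 have all 5 GATA-4 points below all 5 LacZ points, Mrpl3 touches at GATA-4 array 1, and Mrpl17 and Mrpl52 overlap.

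Promoters are shown for Mrpl3, Mrps30 and Mrpl51, which fell, and for Mrpl17 as the brightest member. Mrpl16 was not matched. RefSeq promoter sequences on rat build GRCr8, from 250 bases before the start site to 50 bases after it, were matched for 59 of the 73 members. The letters searched, on either strand, were a longer NRF-1 form (GCGC, any 2 bases, then GCGC again) and the shorter NRF-1 form TGCGCA. They were CCGGAAG for ETS factors such as GABP and AAGATGG for the factor YY1. For GATA factors they were AGATA with a following A or G, and the same with T as the opening base. NRF-1, GABP and YY1 are known regulators of nuclear genes for mitochondrial proteins. The capitals below mark every match, written 5′ to 3′ in the direction of the gene.
Mrpl3, chr8:114548720-114549019, plus strand: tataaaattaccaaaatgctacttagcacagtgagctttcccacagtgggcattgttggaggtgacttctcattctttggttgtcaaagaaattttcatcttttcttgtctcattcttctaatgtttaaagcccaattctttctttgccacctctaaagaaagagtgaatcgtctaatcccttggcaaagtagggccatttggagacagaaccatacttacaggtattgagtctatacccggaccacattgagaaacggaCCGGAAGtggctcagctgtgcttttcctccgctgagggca
Mrps30, chr2:52195855-52196154, minus strand: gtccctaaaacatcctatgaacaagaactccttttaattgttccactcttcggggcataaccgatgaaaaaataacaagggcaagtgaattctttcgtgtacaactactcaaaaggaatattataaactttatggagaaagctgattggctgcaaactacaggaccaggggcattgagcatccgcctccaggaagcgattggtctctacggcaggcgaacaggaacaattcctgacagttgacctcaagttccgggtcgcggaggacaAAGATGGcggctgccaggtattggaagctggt
Mrpl51, chr4:159677738-159678037, plus strand: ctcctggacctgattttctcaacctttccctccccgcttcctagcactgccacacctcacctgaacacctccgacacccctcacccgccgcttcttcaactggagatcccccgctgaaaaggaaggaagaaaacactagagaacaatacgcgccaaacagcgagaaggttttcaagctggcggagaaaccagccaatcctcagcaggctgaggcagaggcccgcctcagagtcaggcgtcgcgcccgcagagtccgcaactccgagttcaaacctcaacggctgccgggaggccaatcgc
Mrpl17, chr1:169575650-169575949, minus strand: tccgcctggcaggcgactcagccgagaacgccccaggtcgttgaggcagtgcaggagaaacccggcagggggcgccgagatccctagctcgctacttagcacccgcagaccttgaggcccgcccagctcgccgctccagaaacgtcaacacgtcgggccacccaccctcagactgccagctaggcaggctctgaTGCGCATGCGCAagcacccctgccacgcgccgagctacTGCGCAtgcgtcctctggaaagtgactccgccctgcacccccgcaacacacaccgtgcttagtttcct

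In these windows Mrpl3 held an ETS match whose first base lay 11 bases into the transcript, and Mrps30 a YY1 match at base 19 of the transcript. Mrpl17 held TGCGCA from 56, 50 and 18 bases before the start site. The first pair lay end to end without sharing a base. The longer NRF-1 form, which began 55 bases before the start site, overlapped both of that pair. None of the letters searched was found in the Mrpl51 window. Over the 59 member promoters the longer NRF-1 form was present in 20.3%, TGCGCA in 27.1%, the ETS letters in 33.9% and the YY1 letters in 25.4%. Over the promoters of the 8906 tested genes that were matched these shares were 13.2%, 13.6%, 18.2% and 8.66%, and over all 27457 promoters they were 6.15%, 7.68%, 9.22% and 7.30%. At least 1 of these forms was found in 67.8% of member promoters, 39.2% of those of tested genes and 23.8% of all. The GATA letters were present in 20.3% of member promoters, in 19.1% of those of tested genes and in 29.9% of all. The median GC content was 56.0% for members, 61.0% for tested genes and 52.3% for all promoters of the table.

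The large subunit held all 4 genes that fell. Of its 48 members 43 had a negative difference, with a median of -0.17. Of the 25 small-subunit members 24 had a negative difference, with a median of -0.16, and none passed, while 6 of the 25 fell without GATA-4 array 1, as did 19 of the large subunit, at a share of 8.86% of all genes tested. The proteins with a bacterial counterpart (43 members, 2 fell, median -0.16) and those without one (30 members, 2 fell, median -0.19) had similar counts. Whether these classes differ was not tested.

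Of the 73 members 7 had all GATA-4 arrays below all LacZ arrays, or 9.59%, and none had the opposite order. Of all genes tested, dimmer ones included, 5.1% had the first order and 4.56% the opposite. By the probe set that stood for each gene, all 7 members belong to the large subunit. Besides Mrpl16, Mrpl51 and Mrps30 they were Mrpl42, Mrpl2, Mrpl21 and Mrpl19, the last 2 named after their values were seen. Dimmer probe sets of the small-subunit genes Mrps14, Mrps9 and Mrps15 also had all GATA-4 arrays below all LacZ arrays. So did dimmer probe sets of Mrpl12 and Mrpl40 in the large subunit. Mrpl42, the second brightest member, read 11.60, 11.56, 11.54, 11.37 and 11.61 on the GATA-4 arrays, against 11.86, 11.66, 11.76, 11.70 and 11.84 on the LacZ arrays. Its difference of -0.23 (SE 0.07) missed the threshold, with an adjusted p of 0.0605. Mrpl2, the counterpart of bacterial L2 at the catalytic centre, read 9.62, 9.36, 9.46, 9.37 and 9.58 with GATA-4, against 9.77, 9.63, 9.71, 9.88 and 9.81 with LacZ. The gap between the groups was narrow, and the difference of -0.28 (SE 0.09) had an adjusted p of 0.0879. Mrpl21 and Mrpl19 had differences of -0.25 and -0.23.

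Other large-subunit members close to the threshold were Mrpl45 and Mrpl48. Mrpl45 holds the ribosome to the inner membrane beside the tunnel through which new proteins leave. It read 10.48, 10.20, 10.23, 10.23 and 10.27 with GATA-4, against 10.50, 10.46, 10.55, 10.62 and 10.56 with LacZ. Only GATA-4 array 1 reached into the LacZ range, and with all arrays the difference was -0.26 (SE 0.08, adjusted p = 0.0716). Without that array Mrpl45 fell by 0.30, with an adjusted p of 0.00612. In the other 9 fits with an array removed it did not pass, with adjusted p-values up to 0.166. Mrpl48 had one of the widest differences, -0.37 (SE 0.12), with GATA-4 values of 9.50 to 10.05 and LacZ values of 9.90 to 10.37, and its adjusted p was 0.0874.

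In the small subunit, Mrps35 and Mrps5, which is the counterpart of bacterial S5, came nearest. Mrps35 read 9.99, 9.96, 10.19, 9.87 and 10.14 on the GATA-4 arrays, against 10.41, 10.10, 10.50, 10.40 and 10.52 on the LacZ arrays. LacZ array 2 alone lay within the GATA-4 range. The difference of -0.36 (SE 0.10) had an adjusted p of 0.0560. Mrps5 ranged from 9.00 to 9.49 with GATA-4 and from 9.27 to 9.68 with LacZ, a difference of -0.34 (SE 0.11, adjusted p = 0.0996). Mrps12, the counterpart of the bacterial decoding-centre protein S12, had a GATA-4 mean of 10.09 ± 0.08 and a LacZ mean of 10.12 ± 0.12 (SD over 5 arrays), with a limma adjusted p of 0.835.

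The stalk of the large subunit recruits the translation factors. Its base protein Mrpl10 had a positive difference, 0.04 (SE 0.10), with 9.48, 9.05, 9.13, 9.14 and 9.22 on the GATA-4 arrays against 9.19, 9.15, 9.16, 9.20 and 9.13 on the LacZ arrays. Its LacZ values were tightly grouped. GATA-4 array 1 lay above them, and array 5 did so narrowly. A dimmer Mrpl10 probe set differed by 0.06 (limma adjusted p = 0.916). Without GATA-4 array 1 the difference of the brighter Mrpl10 probe set was -0.03, and with median centring it was -0.02. It was positive under 18 of the 22 alternatives. Mrpl12, the stalk protein that is also known to bind the mitochondrial RNA polymerase, read 11.46, 11.13, 11.26, 10.95 and 11.14 with GATA-4, against 11.44, 11.22, 11.37, 11.36 and 11.39 with LacZ. Its difference of -0.17 (SE 0.09, adjusted p = 0.295) became a fall of 0.23 without GATA-4 array 1 (adjusted p = 0.0386). In the other 9 fits with an array removed Mrpl12 did not pass, with adjusted p-values up to 0.506. A second, dimmer Mrpl12 probe set had a difference of -0.57 with no overlap between groups and an adjusted p of 0.0625.

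Mrpl44 has the fold of an RNA-cutting enzyme and, like Mrpl3, its human gene is known from inherited cardiomyopathy. It ranged from 9.09 to 9.47 on the GATA-4 arrays and from 9.44 to 9.70 on the LacZ arrays, a difference of -0.27 (SE 0.10, adjusted p = 0.119). Without GATA-4 array 1 it fell by 0.32 (adjusted p = 0.0225). In the other 9 fits with an array removed it did not pass, with adjusted p-values up to 0.251.

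The paralogs Mrps18a, Mrps18b and Mrps18c are 3 descendants of bacterial S18, of which Mrps18a sits in the large subunit and the other two in the small one. Their differences were -0.10, -0.16 and -0.16, with limma adjusted p-values of 0.633, 0.579 and 0.461. Mrps18b was the most scattered of them, with 11.03, 10.26, 10.20, 10.45 and 10.80 on the GATA-4 arrays against 10.63, 10.66, 11.01, 10.56 and 10.67 on the LacZ arrays. The GATA-4 values of Mrps18b spanned the whole LacZ range and more. Mrps18c was the dimmest of all members, at a mean of 8.28.

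The brightest members were Mrpl17, Mrpl42, Mrpl3, Mrps16 and Mrpl15. Mrpl17 read 12.34, 12.38, 12.31, 12.34 and 12.46 on the GATA-4 arrays, against 12.33, 12.39, 12.52, 12.46 and 12.17 on the LacZ arrays, a difference of -0.01 (SE 0.06). Its groups overlapped throughout. Mrps16 and Mrpl15, counterparts of bacterial S16 and L15, each differed by -0.18, with adjusted p-values of 0.243 and 0.115. Each fell without GATA-4 array 1 (by 0.26 and by 0.20). In the other 9 fits with an array removed neither passed, with adjusted p-values up to 0.405 and 0.247. Besides Mrps18c, the dimmest members were Mrpl14, Mrpl46, Mrps27 and Mrpl52. None of these passed, and Mrpl14, Mrpl46 and Mrps27 differed by -0.17, -0.22 and -0.30.

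Mrpl52, a large-subunit protein without a bacterial counterpart, had the highest difference of the 6 positive members. It read 9.31, 9.17, 9.30, 8.86 and 9.03 on the GATA-4 arrays, against 8.88, 8.52, 8.81, 8.81 and 9.06 on the LacZ arrays. The 3 highest values were GATA-4 arrays and the groups overlapped in the rest. The difference of 0.32 (SE 0.12) had an unadjusted p of 0.0227 and an adjusted p of 0.152, and a dimmer probe set of the gene differed by -0.35 with an adjusted p of 0.664. With its probe sets averaged, Mrpl52 differed by -0.02.

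More than 1 probe set was listed for 18 members. Of the 24 probe sets that did not stand for a gene 20 passed the filter, 14 of them with a negative difference, and 2 fell. These belonged to small-subunit genes, Mrps14 (difference -0.54, adjusted p = 0.0229) and Mrps9 (difference -0.44, adjusted p = 0.0437), named after their values were seen. Their brighter probe sets had differences of -0.24 and -0.28 and did not pass. The Mrps14 probe set that fell had a GATA-4 mean of 9.58 ± 0.25 and a LacZ mean of 10.12 ± 0.07 (SD over 5 arrays). Of the 16 members with 2 or more tested probe sets 11 had the same sign in all of them. The exceptions were Mrpl49, Mrpl52, Mrpl57, Mrps2 and Mrps27. With all probe sets of a member averaged, Mrpl16, Mrpl3 and Mrps30 fell and Mrpl51 did not pass.

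The spread among GATA-4 arrays was wider than among LacZ arrays. The SD was larger with GATA-4 for 60 of the 73 members, with medians of 0.18 and 0.10, and over all genes tested the medians were 0.25 and 0.15. GATA-4 array 4 was the lowest GATA-4 array for 47 members and lay below every LacZ array for 62. GATA-4 array 1 was the highest GATA-4 array for 45 members and lay below every LacZ array for 23, among them Mrpl16 and Mrps30. GATA-4 arrays 2, 3 and 5 lay below every LacZ array for 44, 34 and 38 members. In the LacZ group, array 2 was the lowest for 39 members. The median deviation of the 73 members from their own means was 0.09, -0.09, -0.02, -0.25 and -0.07 on GATA-4 arrays 1 to 5, against 0.14, -0.01, 0.10, 0.07 and 0.12 on LacZ arrays 1 to 5. GATA-4 arrays 2 to 5 lay below all LacZ arrays, and GATA-4 array 1 lay within the LacZ range.

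**Figure D3:**
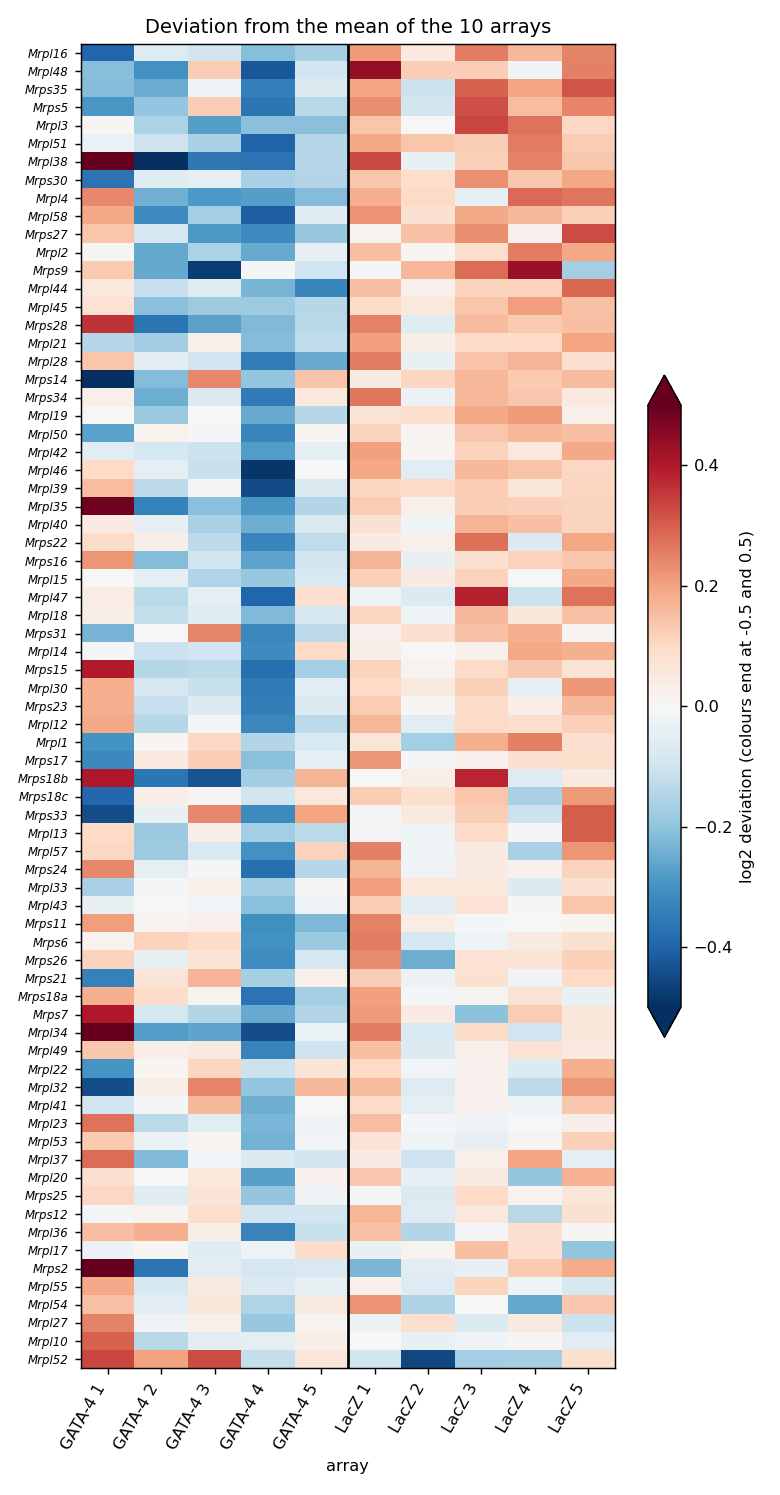
Deviation of each of the 73 members (down the page, most negative difference first) from its mean over the 10 arrays, on the log2 scale, with GATA-4 arrays at the left and LacZ arrays at the right of the black line. GATA-4 array 4 is blue for most members, while GATA-4 array 1 holds dark red and dark blue cells side by side.

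Without the dim GATA-4 array 1, 25 members fell and none rose, which is 34.2% of the members where 8.86% of all genes tested fell. They included the 4 that fell with all arrays, and their differences ran from -0.20 to -0.51. With array weights, which gave this array 0.238 where the others had 0.961 to 1.55, 26 members fell, or 35.6%, where 9.11% of all genes tested did, and 24 genes were in both sets. These shares over all genes tested take in genes dimmer than any member. With all arrays, 2.66% of all genes tested fell, against 4.34% of those at least as bright as the dimmest member. GATA-4 array 1 was the GATA-4 array nearest to the LacZ arrays in the members' median, and the median difference was -0.21 without it. The part that the dimness of this array plays in its member values was not tested.

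Most genes on lists of mitochondrial gene expression also had a negative difference. The share of all genes tested that fell was 2.66%. Of 28 measured genes of mitoribosome assembly and mitochondrial transcription 27 had a negative difference, with a median of -0.24, and 3 fell (10.7%). These were Tfb2m, a start factor of mitochondrial transcription (-0.34, adjusted p = 0.0374), Rbfa, which serves small-subunit maturation (-0.38, adjusted p = 0.0404), and Mettl15, a methyltransferase for the small-subunit RNA (-0.59, adjusted p = 0.0481). Of 22 translation factors and related genes 20 were negative, with a median of -0.22, and 3 fell (13.6%). Gfm1, the elongation factor that moves the ribosome along, read 10.09, 10.25, 10.18, 10.32 and 10.34 with GATA-4, against 10.52, 10.51, 10.64, 10.56 and 10.70 with LacZ. Its groups were fully apart and it fell by 0.35 (SE 0.08, adjusted p = 0.0255). Gfm2, which helps take ribosomes apart, and Qrsl1, a subunit of the enzyme that makes mitochondrial glutaminyl-tRNA, fell by 0.50 and by 0.43 (adjusted p = 0.0415 and 0.0266). Of 13 mitochondrial tRNA synthetases 11 were negative and none passed, with a median of -0.30. Of 6 genes on a list of mitoribosome subunits under other symbols, which also held the membrane insertase Oxa1l, 5 were negative and none passed (median -0.11).

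Among 16 regulators of mitochondrial biogenesis 11 had a negative and 5 a positive difference, with a median of -0.10 and a range from -0.36 to 0.77. The only gene of the list that passed was Pprc1, a coactivator of the Ppargc1 family, which rose. It read 7.63, 7.38, 7.74, 8.09 and 7.87 with GATA-4, against 7.15, 7.37, 7.06, 7.19 and 7.01 with LacZ. The groups did not overlap, and the difference was 0.59 (SE 0.14, adjusted p = 0.0306). Ppargc1a, its better known relative, differed by -0.31 (SE 0.13, adjusted p = 0.191), and the transcription factor genes Nrf1 and Gabpa by 0.39 and -0.36 without passing.

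Complex I, the largest respiratory complex, takes several of its subunits from the mitochondrial ribosome, and its nuclear genes were set beside the members. All 35 measured nuclear complex I genes had a negative difference, with a median of -0.15. Of them 5 fell, or 14.3%, where 2.66% of all genes tested did. Of 43 measured genes for cytosolic ribosomal proteins 41 had a positive difference, with a median of 0.12, and 4 rose (Rpl27a, Rpl3, Rpl41 and Rpl26), while none fell. Over all genes tested 3.71% rose. On every GATA-4 array the median deviation of complex I genes lay below that of every LacZ array, from -0.13 to -0.04 against 0.04 to 0.12. For cytosolic ribosomal proteins it lay above, from 0.00 to 0.14 against -0.12 to -0.01. The difference between these sets and the members was not tested.

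Markers of macrophages and of dividing cells had the opposite sign. Their median deviation was -0.04 on GATA-4 array 1 and 0.21 to 0.45 on GATA-4 arrays 2 to 5, against -0.47 to -0.11 on the LacZ arrays, with all 13 markers positive. Dividing-cell markers had -0.11 on GATA-4 array 1 and 0.11 to 0.62 on GATA-4 arrays 2 to 5, against -0.42 to -0.11 on the LacZ arrays, with all 15 positive. Cardiac muscle markers had medians of -0.03 to 0.02 with GATA-4 and -0.01 to 0.05 with LacZ, and 9 of 13 were negative (median -0.03). Of 8 fibroblast and 7 endothelial markers none passed, with median differences of 0.03 and -0.07. Of the atrial markers Myl7, Sln and Nppa none passed, though 2 were negative and 1 positive, with a median difference of -0.85. Their differences ran from -1.36 to 0.12. Their median deviation was widely scattered, from -0.60 to 0.34 on the GATA-4 arrays and from -0.36 to 0.84 on the LacZ arrays. The part of a changed mix of cells in the members' differences was not tested.

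**Figure D4:**
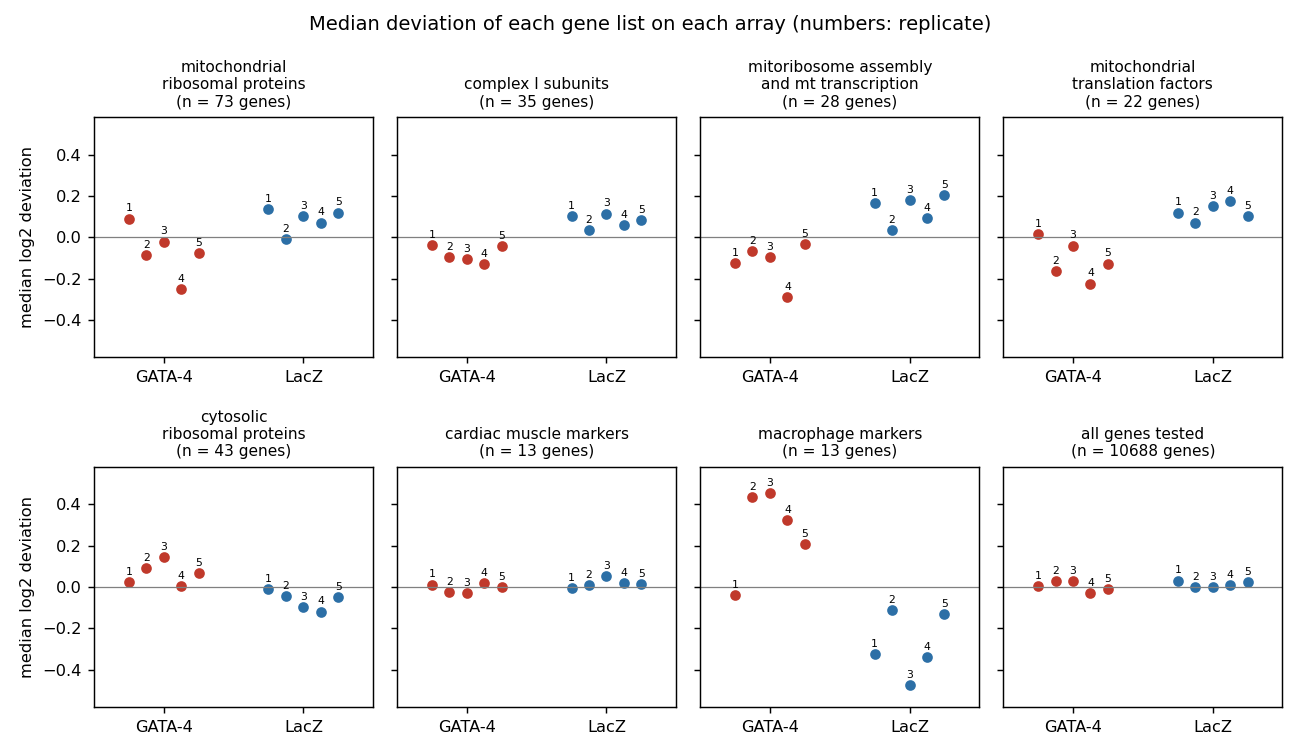
Median log2 deviation of each gene list from its genes' means, on each of the 5 GATA-4 and 5 LacZ arrays, with replicate numbers above the points. For mitochondrial ribosomal proteins GATA-4 array 1 lies among the LacZ arrays and GATA-4 array 4 is lowest, while complex I genes lie below, and cytosolic ribosomal protein genes above, all LacZ arrays on all 5 GATA-4 arrays.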

How the data were processed

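The authors deposited linear intensities, 1 column per sample and 1 row per probe set. Per the submitters' processing notes they come from GCOS, the maker's scanner software, and no source used here gives its version, summary algorithm, scaling or detection calls. Gene names came from GEO's annotation of the platform: 20826 had a single gene, 436 several and 9780 none, and 57 array controls were left out. Groups came from the source labels, since all titles name GATA-4, and numbers 1 to 5 only name arrays.

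Intensities were taken to log2, quantile normalized, floored at 0, and tested where the mean lay above the 40th percentile, with limma 3.58.1 in R 4.3.3 (lmFit, eBayes with an intensity trend, two-sided, no covariates). Array weights used statmod 1.5.0. P-values set the difference between groups against the spread of samples within groups, which limma moderates over all probe sets tested. The number of arrays limits the precision. Tested on simulated data over 18625 probe sets, the fit recovered 6% of 1.25-fold changes and 40% of 1.5-fold ones, 74% of those of 2-fold and 98% of those of 3-fold, with normal noise and no outlying array. The simulation changed 200 probe sets drawn from all those tested, where 988 passed the threshold in the data. Recovery among probe sets as bright and as little scattered as the members was not examined. The members and lists were chosen with earlier results of these data known. Named members are those past the threshold, the 6 next by p, the 5 brightest and 5 dimmest, the stalk, decoding-centre, exit-tunnel, cardiomyopathy and Mrps18 genes, and those whose probe sets differ in sign. Of each other list the changed genes are named, at most 4. Other names were chosen after their values were seen, such as Ppargc1a, Nrf1, Gabpa and Oxa1l. The alternatives were the values as deposited, median centring, an added constant of 16, another floor, no filter, a stricter filter at the 60th percentile, other limma settings, averaged probe sets, and arrays left out.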

Additional observations from a re-analysis of the deposited data

Results flagged for a closer look

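In groups of 5 arrays, a sample is listed here where its gap to the next exceeds Dixon's 95% limit. Of 58 groups examined 4 held such a sample, and chance gives about 1 in 20. Mrpl42 read 11.37 on GATA-4 array 4, where the rest of its group lay between 11.54 and 11.61. Mrpl45 read 10.48 on GATA-4 array 1, where the rest of its group lay between 10.20 and 10.27. Mrps18b read 11.01 on LacZ array 3, where the rest of its group lay between 10.56 and 10.67. Mrps35 read 10.10 on LacZ array 2, where the rest of its group lay between 10.41 and 10.52. The values lay on 4 different arrays.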

How the results depend on the processing

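The members' median difference was negative under all 22 alternatives, from -0.26 to -0.11, with 56 to 72 of 73 members negative and no member higher past the threshold (1 at an unadjusted p under 0.05 with all arrays, Mrpl52). The count of members that fell was 0 in the values as deposited (limma, 1 at an unadjusted p under 0.05), 0 without the intensity trend (21), 0 with GATA-4 arrays 1 to 3 only (12), 2 without the filter, 26 with array weights and 22 under median centring without GATA-4 array 1. Leaving out each array in turn gave 0 to 25. Over all probe sets 988 changed in either direction, and 9, 539, 201, 619, 2890 and 2616 under those same settings in that order, of which 422 fell in the first count and 0, 181, 62, 227, 1455 and 1486 in the others. With an array left out 174 to 2849 changed in either direction. With quantile normalization 566 probe sets rose and 422 fell, and with median centring 322 rose and 401 fell, while 4 members fell and their median was -0.25. The 4 members that fell kept their sign under all 22 alternatives, but 40 of their 88 values there missed the threshold. Of the 506 values of the other named members 32 passed it. The cause was not tested. No paired analysis was possible because the labels give the groups no shared replicate numbers.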
